A study of Mus musculus with 29 samples.

Results

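ERV1 elements are the class I endogenous retroviruses of the mouse genome, copies of old gammaretrovirus-like infections that are now inherited as DNA. The members described here were the 149 rows of the element annotation whose class is ERV1, among 1180 subfamilies of transposable elements and 24394 genes in each count table. A row is a subfamily, so it adds up the reads of all its copies and has no single position in the genome. Of the members, 30 were internal rows (names ending in -int, the protein-coding part between the repeats) and 119 were long terminal repeats (LTRs, the promoter-bearing ends) or had other names. By name, 5 belonged to VL30 and RLTR6, 2 to murine leukemia virus (MLV, named RLTR4), 14 to MuRRS, MURVY and LTRIS, 10 to GLN with RLTR1, 21 to other rodent RLTR names, 53 to MER names, 34 to LTR names and 10 to none of these.

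An intact gammaretrovirus carries an LTR at each end, and the LTR promoter drives the genes for capsid, reverse transcriptase and envelope. In mouse embryonic stem (ES) cells these elements are held silent largely by KRAB zinc finger proteins, which bind the provirus and recruit the corepressor TRIM28 and the methyltransferase SETDB1, so that the histone mark H3K9me3 is laid down. DNA methylation adds to silencing, above all in differentiated cells. VL30 is a mouse retroelement without working genes that uses MLV proteins, and GLN and MLV still have copies with long open reading frames.

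The 20 RNA-seq libraries are 4 experiments with 2 libraries per group, all from untreated 129/Ola ES cells kept in serum medium on gelatin. The first held wild type and the lines KO1 and KO2 labelled Trim66 Knockout, where Trim66 encodes a chromatin-associated protein of the TRIM24, TRIM28 and TRIM33 family. The second set cells with GFP alone (GFP vector) against cells with GFP-TRIM66. The third set a control labelled wild type against hairpins sh1 and sh2 to Dax1 (gene Nr0b1, an orphan nuclear receptor and corepressor). The fourth set another control labelled wild type against a double knockdown of Dax1 and Dux, the homeobox gene whose product activates the transcripts of 2-cell embryos. The labels do not say whether a line is 1 clone or how the knockouts were made, nor that replicates were separate cultures, so p-values measure the spread between these libraries, which may be technical.

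Library totals ranged from 12483949 to 17365296 counts. Trim66 had 11 and 15 counts in the wild-type pair, 35 and 38 in the KO1 pair and 33 and 48 in the KO2 pair, which goes against the label, so each direction given for the libraries labelled knockout rests on the label alone. GFP-TRIM66 raised Trim66 from 27 and 24 counts to 3556 and 3267, and Nr0b1 fell with sh1 (log2 fold change -1.35) and with sh2 (-0.99). After the double knockdown Nr0b1 was at -0.90 (adjusted p = 0.275), and Dux had 2 and 0 counts against 0 and 0 in its control, so the knockdown of Dux could not be assessed. Summed over 10 ES cell markers, levels were 5625 to 9035 CPM (counts per 1e+06 counts, scaled by TMM within each experiment) in the first 3 experiments and 2848 to 4433 CPM in the double knockdown experiment. With sh1 the sum was 5713 and 5625 CPM against 7189.8 and 7276 CPM in its control. Of the 10 markers 9 were lower and 1 higher with sh1, beside 21.2% and 22.3% of all features. With sh2 the sum was 7798 and 7502.5 CPM, with 5 higher and 1 lower, beside 12.5% of all features in each direction. In the double knockdown experiment 7 trophectoderm markers (mostly Krt8 and Krt18) summed to 428 CPM in replicate 1 of the control and to 2705.4 to 3275.9 CPM in the other libraries, against at most 476 CPM elsewhere. Genes of the Y chromosome also differed: Ddx3y was at 0 in both double knockdown controls, with 1059 and 843 counts after the knockdown, and it had 7 and 7 counts in the Dax1 control against 723 and 817 with sh1 and 214 and 254 with sh2. In the knockout experiment 9 Y-linked genes summed to 108 and 102 CPM in wild type, 149 and 148 CPM in KO1, and 188 and 181 CPM in KO2, with 4 of 5 tested higher in each line, beside 17.4% and 6.45% of all features. The groups compared therefore differ in cell markers or Y-linked RNA as well as in their labels, and the part of this in the values below was not tested.

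ERV1 rows took a small share of the RNA, 0.103% to 0.242% of all counts per library. The wild-type libraries had 0.120% and 0.128%, the KO1 libraries 0.128% and 0.136%, and the KO2 libraries 0.144% and 0.140%. The share was 0.151% and 0.156% with the GFP vector and 0.117% and 0.103% with GFP-TRIM66. It was 0.128% and 0.121% in the Dax1 control, 0.147% and 0.155% with sh1, and 0.136% and 0.143% with sh2. KO1 overlapped wild type, and the other treated pairs lay apart from their controls, below the vector with GFP-TRIM66 and above their controls elsewhere. The double knockdown controls differed widely, at 0.153% and 0.232%, and the double knockdown libraries, at 0.242% and 0.221%, overlapped them. An exact permutation test of 2 against 2 libraries cannot give a two-sided p below 0.333, so the shares were not tested.

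One row, RLTR1B-int, held between 11.4% and 58.8% of all ERV1 counts, and the 10 members with the highest mean level held 44.9% to 82.1%. Row lengths were not given, so this order is one of counts and not of level per length. Without RLTR1B-int the double knockdown experiment was no longer the highest: its ERV1 share was 0.0919% and 0.102% in the control and 0.0996% and 0.0953% in the double knockdown, against 0.0826% to 0.136% in the other experiments. The rest of ERV1 was at 0.103% and 0.0965% in the Dax1 control, 0.110% and 0.115% with sh1, and 0.111% and 0.116% with sh2.

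**Figure D1:**
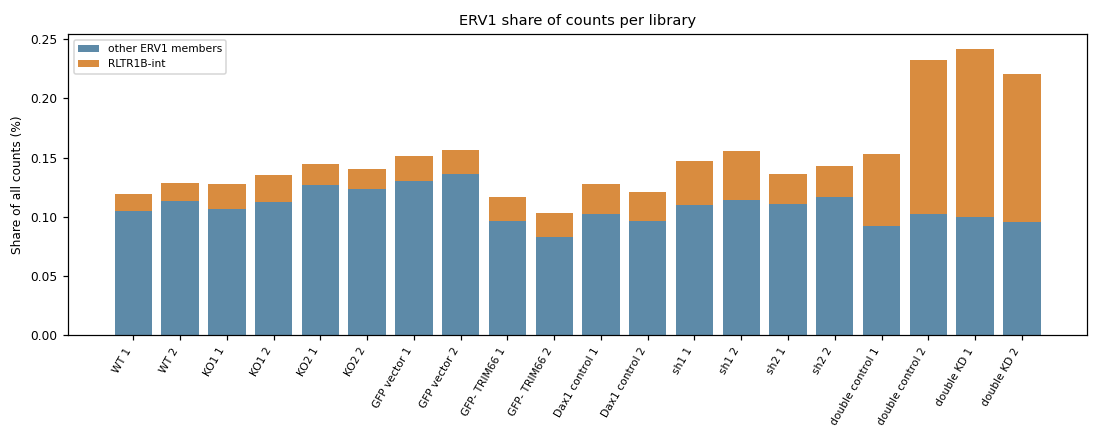
Share of all counts in ERV1 rows for each of the 20 libraries, with the part in RLTR1B-int stacked on the part in the other members. Totals run from 0.103% to 0.242%, and the RLTR1B-int part is widest in the double knockdown experiment, where it reaches 58.8% of the ERV1 counts.

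Many members were too low to test: 98 of the 149 passed the filter on low counts in at least 1 experiment, 77 in all 4 and 51 in none, and 9 had no count in any library. Over the 8 comparisons 35 members were called by edgeR's quasi-likelihood test at an adjusted p under 0.05, which is adjusted over all genes and elements tested. KO1 and KO2 share the same wild-type libraries, and sh1 and sh2 share the same control libraries, so agreement between them is no independent support.

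In KO1 against wild type 2 of 94 tested members were higher and 7 lower, or 9.57% called, against 31.2% of all features (17.4% higher and 13.8% lower). In KO2 against wild type 2 were higher and 1 lower, or 3.19%, against 11.7% of all features (6.45% and 5.29%). The lines differed from each other in 10 members, 7 higher and 3 lower in KO2, or 10.6%, against 23.0% of all features (10.1% and 13.0%). With Dax1 sh1 13 of 84 tested members were higher than in the control and 4 lower, or 20.2%, against 43.4% of all features (22.3% and 21.2%). With Dax1 sh2 17 were higher than in the control and 2 lower, or 22.6%, against 25.1% of all features (12.5% in each direction). Between the hairpins 12 members were higher and 6 lower with sh2, or 21.4%, against 36.4% of all features (18.2% in each direction). In every one of these comparisons the share of ERV1 called, with both directions pooled, was below that of all features. By direction, the higher calls with sh2 (17 of 84) took a larger share than the 12.5% of all features. Among all elements tested with sh2, 188 of 848 were higher. The median log2 fold change of tested members was -0.03 in KO1, 0.14 in KO2, 0.06 with sh1 and 0.21 with sh2, beside -0.12, 0.06, 0.03 and 0.18 for all tested elements and 0.02, 0.01, 0.01 and 0.01 for all tested features. When libraries were scaled on transposable elements only, the median of all features moved to 0.11 in KO1, -0.06 in KO2, 0.00 with sh1 and -0.16 with sh2. The ERV1 medians were then 0.08, 0.07, 0.05 and 0.04. The member calls split 6 higher and 1 lower in KO1, 5 and 1 in KO2, and 4 and 6 between the lines. They split 11 and 6 with sh2 and 4 and 9 between the hairpins. Calls among all features were then 4137, 1856, 3578, 4729 and 4924 in the same order.

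**Figure D2:**
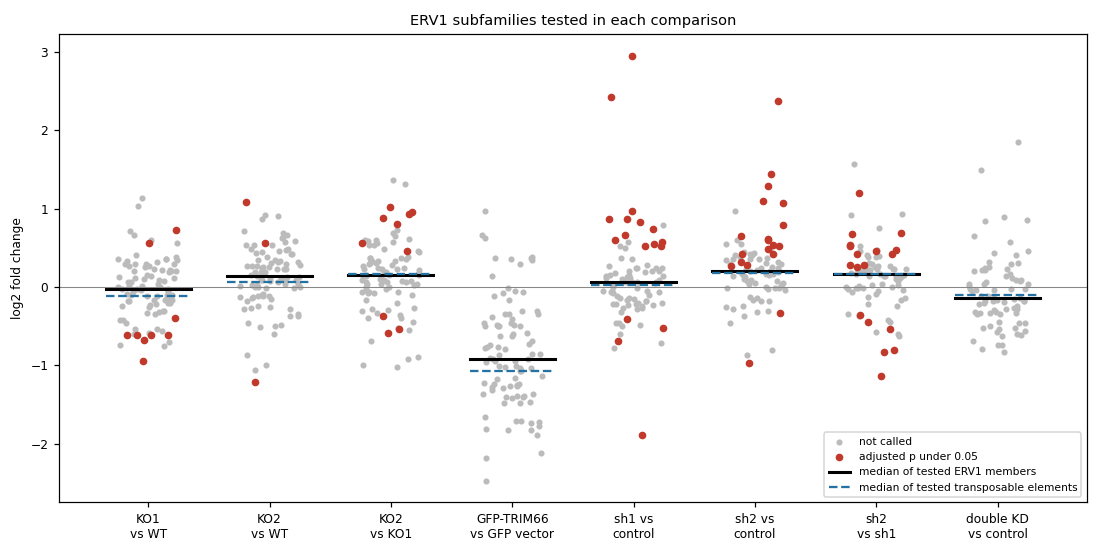
Log2 fold change of each tested ERV1 member in the 8 comparisons, with called members in red, the median of tested members as a solid bar and the median of all tested transposable elements as a dashed bar. Medians stay between -0.14 and 0.21 in 7 comparisons and lie at -0.92 (ERV1) and -1.07 (elements) with GFP-TRIM66, where no member was called.

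The member with the smallest adjusted p in any comparison was RLTR6B_Mm, an LTR row of the RLTR6 family, to which VL30 belongs. It was at 9.90 and 6.67 CPM in the Dax1 control, 49.8 and 40.2 CPM with sh1, and 20.3 and 20.6 CPM with sh2. Both hairpins lay above the control, sh1 above sh2, with no overlap. The log2 fold change was 2.43 with sh1 (SE 0.131, adjusted p = 1.77e-14) and 1.29 with sh2 (SE 0.148, adjusted p = 1.63e-07), and sh2 was 1.14 below sh1 on the log2 scale (log2 fold change -1.14, adjusted p = 7.52e-09). These 3 calls held under every alternative tried, with log2 fold changes between 2.18 and 2.75 for sh1 and between 1.04 and 1.61 for sh2.

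In the knockout experiment RLTR6B_Mm was at 11.5 and 10.8 CPM in wild type, 10.4 and 9.87 CPM in KO1, and 14.8 and 15.0 CPM in KO2. The groups did not overlap, but neither line passed the test against wild type (log2 fold change -0.14, adjusted p = 0.525 for KO1, and 0.42, adjusted p = 0.0930 for KO2). KO2 was above KO1 (log2 fold change 0.56, SE 0.149, adjusted p = 0.0239), a call lost when either KO1 library was left out (adjusted p = 0.128 without replicate 1 and 0.166 without replicate 2), with DESeq2 (0.0595) and with scaling on elements only (0.187). With GFP-TRIM66 it was at 7.34 and 6.60 CPM against 13.2 and 14.8 CPM with the vector, or -1.005 on the log2 scale (SE 0.33, adjusted p = 0.223, not called), which turned to 0.025 with scaling on elements only. The double knockdown had 6.72 and 5.22 CPM against 5.31 and 5.67 CPM, with overlap (log2 fold change 0.12, adjusted p = 0.878).

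The rows most like RLTR6B_Mm over the 20 libraries were MT2_Mm, the LTR of MERVL, with a Pearson correlation of log2(CPM + 1) of 0.93, and Usp17le (chromosome 7, 104767961 to 104777470, GRCm38.p6), with 0.92. MERVL is the class III retrovirus whose transcription marks the 2-cell-like state. Within experiments, with each experiment's mean removed, these were 0.94 and 0.93, and MERVL-int was at 0.90. All are computed over the same libraries, share their depth, and were picked as closest after values were seen. MERVL-int was at 108 and 110.5 CPM in the Dax1 control, 1119.8 and 1150 CPM with sh1, and 529 and 592 CPM with sh2, log2 fold changes of 3.38 and 2.36. In the knockout experiment MERVL-int rose by 0.35 in KO1 (adjusted p = 0.0281) and 1.02 in KO2 (adjusted p = 0.000352) on the log2 scale. The double knockdown value of MERVL-int, 0.99, was not called (adjusted p = 0.209).

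The other VL30 rows moved less. MMVL30-int, the VL30 internal part, was at 10.3 and 9.35 CPM in the Dax1 control, 15.6 and 15.5 CPM with sh1, and 15.6 and 15.3 CPM with sh2. The hairpin libraries were all above the control and overlapped each other. The log2 fold changes were 0.66 (SE 0.127, adjusted p = 0.000115) and 0.65 (SE 0.129, adjusted p = 0.000358). RLTR6-int was at 21.7 and 18.8 CPM in the control, 28.8 and 29.9 CPM with sh1 (log2 fold change 0.53, adjusted p = 0.000137), and 22.8 and 26.9 CPM with sh2 (0.29, adjusted p = 0.0488). The sh2 call for RLTR6-int was lost without control replicate 2 (log2 fold change 0.19), without sh2 replicate 2 (0.16), with RLE size factors, with DESeq2 and with scaling on elements only. RLTR6-int was also higher in KO2, at 35.6 and 35.6 CPM, than in KO1, at 26.2 and 25.6 CPM (log2 fold change 0.46, adjusted p = 0.0215), a call lost without either KO1 library (adjusted p = 0.139 and 0.157) and with scaling on elements only (0.264). RLTR6_Mm, an LTR of the family, was lower in KO1 (133 counts against 211 in wild type, log2 fold change -0.61, adjusted p = 0.0396) and was called in no other comparison. This call was lost when any 1 of the 4 libraries was left out (adjusted p = 0.102 to 0.226), with DESeq2 (0.117) and with scaling on elements only (0.128).

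Of the 5 VL30 and RLTR6 rows, all tested, 3 were thus higher with sh1 and 3 with sh2, 1 was lower in KO1 and none was called in KO2, beside 22.3%, 12.5% and 13.8% of all features for the first 3 of these. With GFP-TRIM66 all 5 had negative log2 fold changes, between -1.005 and -0.34, none of which passed the test, and with scaling on elements only RLTR6B_Mm was no longer negative.

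**Figure D3:**
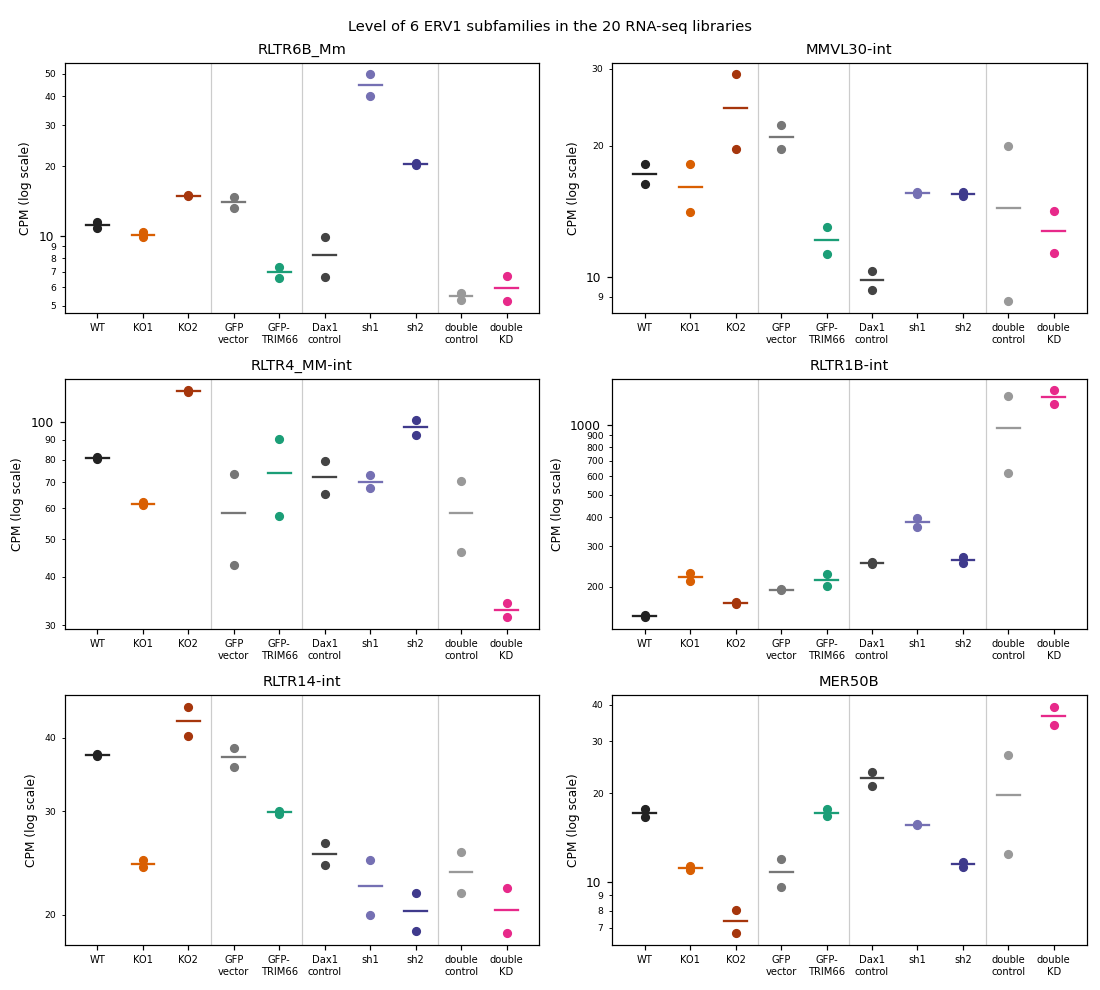
CPM (log scale, scaled within each experiment) of 6 ERV1 subfamilies in the 20 libraries; points are libraries, bars are means of 2, and vertical lines part the experiments. RLTR6B_Mm is highest with sh1 at 49.8 and 40.2 CPM, RLTR4_MM-int parts KO1 from KO2, and RLTR1B-int differs between the double knockdown controls.

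The MLV rows separated the lines labelled knockout. RLTR4_MM-int, the internal part of MLV-like proviruses, was at 80.5 and 81.3 CPM in wild type, 62.1 and 61.1 CPM in KO1, and 120.4 and 119 CPM in KO2. KO1 lay below and KO2 above wild type, with tight pairs and no overlap. It fell in KO1 (log2 fold change -0.39, SE 0.090, adjusted p = 0.00906) and rose in KO2 (0.56, SE 0.089, adjusted p = 0.00318). KO2 exceeded KO1 (log2 fold change 0.96, SE 0.090, adjusted p = 0.000161), and that call held under every alternative. The fall in KO1 was lost when any 1 of the 4 libraries was left out (adjusted p = 0.0604 and 0.0538 without a wild-type library, 0.0850 and 0.0928 without a KO1 library) and with scaling on elements only. The rise in KO2 was lost without wild-type replicate 1 (adjusted p = 0.0509) and in 1 fit of all 20 libraries, a setting in which the spread of the noisier experiments is shared and most calls of all members were lost.

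The MLV LTR row RLTR4_Mm had the same order in means but wider pairs, at 20.4 and 19.9 CPM in wild type, 19.5 and 14.7 CPM in KO1, and 40.5 and 24.9 CPM in KO2. It was called only between the lines (log2 fold change 0.93, SE 0.221, adjusted p = 0.0154), and not without KO1 replicate 2 (adjusted p = 0.138). In the Dax1 experiment RLTR4_MM-int was at 79.4 and 65.1 CPM in the control, 67.5 and 72.9 CPM with sh1, and 92.5 and 101 CPM with sh2. The sh1 libraries overlapped the control (log2 fold change -0.04, adjusted p = 0.667), and the sh2 libraries were above it (0.42, SE 0.074, adjusted p = 9.81e-05) and above sh1 (0.47, adjusted p = 1.46e-05). RLTR4_Mm likewise rose with sh2 (0.42, adjusted p = 0.0028) and not with sh1 (-0.00, adjusted p = 0.984), and was higher with sh2 than with sh1 (0.42, adjusted p = 0.00162). Its sh2 call was lost without control replicate 2 (adjusted p = 0.0501), and with scaling on elements only both sh2 calls were lost (0.0975 against the control and 0.0806 against sh1).

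RLTR4_MM-int in the double knockdown was at 34.3 and 31.5 CPM against 70.4 and 46.4 CPM in the control, below both but with controls far apart. The log2 fold change was -0.83 (SE 0.224) with an unadjusted p of 0.00962 and an adjusted p of 0.29. With GFP-TRIM66 both MLV rows overlapped the vector libraries (log2 fold changes of 0.34 and -0.08), which made them the highest name group by median there. A row named MuLV-int, kept apart because its name differs, had 1.74 and 1.30 CPM in the Dax1 control and 2.25 and 4.32 CPM with sh2 (log2 fold change 1.10, adjusted p = 0.0161), a call lost without sh2 replicate 2 (log2 fold change 0.56, adjusted p = 0.384), without control replicate 2 (adjusted p = 0.133) and with DESeq2 (0.0951).

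RLTR1B-int, the internal part of the RLTR1B retroviruses, was the most counted ERV1 row. It was at 151 and 148 CPM in wild type, 212 and 229 CPM in KO1, and 172 and 169 CPM in KO2. The 3 groups did not overlap, with KO1 highest. It rose in KO1 (log2 fold change 0.56, SE 0.090, adjusted p = 0.0013), not in KO2 (0.20, adjusted p = 0.191), and KO2 was below KO1 (-0.37, adjusted p = 0.0167), a call lost without either KO1 library (adjusted p = 0.0953 and 0.205). In the Dax1 experiment it was at 256 and 252 CPM in the control, 361 and 397 CPM with sh1, and 254 and 270.3 CPM with sh2. Here sh1 stood alone above the control (log2 fold change 0.58, SE 0.050, adjusted p = 3.06e-10) and above sh2 (sh2 against sh1 -0.53, adjusted p = 2.14e-09), and sh2 overlapped the control (0.04, adjusted p = 0.575). Among the double knockdown libraries it was at 618 and 1323 CPM in the control and 1404 and 1229.7 CPM in the double knockdown, with overlap (log2 fold change 0.44, adjusted p = 0.623).

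Trophectoderm marker RNA was also highest in KO1, with sh1 and in 3 of the 4 double knockdown libraries. The summed level of the 7 markers was 51.5 and 52.3 CPM in wild type, 189 and 183 CPM in KO1, and 81.9 and 72.1 CPM in KO2. It was 237 and 222 CPM in the Dax1 control, 476 and 475 CPM with sh1, and 108 and 106 CPM with sh2, where RLTR1B-int was at the level of the control. The double knockdown control had 428 and 2705.4 CPM, where RLTR1B-int was at 618 and 1323 CPM, and in the double knockdown it was 3275.9 and 3144.5 CPM. Of 4 tested trophectoderm markers 3 were higher in KO1 and 2 in KO2, where RLTR1B-int was not called, beside 17.4% and 6.45% of all features. Of 6 tested 4 were higher and 1 lower with sh1, beside 22.3% and 21.2% of all features, and 3 were lower with sh2, beside 12.5%. The 12 fibroblast markers summed to 37.7 to 39.4 CPM in wild type, 37.4 CPM in KO1 and 29.7 to 32.6 CPM in KO2, and to 17.8 to 19.9 CPM in the Dax1 control, 48.6 to 55.3 CPM with sh1 and 17.9 to 18.03 CPM with sh2. They summed to 13.0 and 25.6 CPM in the double knockdown control and 90.8 and 101 CPM in the double knockdown, with no overlap. The RLTR1B-int levels did overlap there. Of 4 fibroblast markers tested, 2 were higher and 1 lower in KO1, beside 17.4% and 13.8% of all features. In KO2 1 was higher and 1 lower, beside 6.45% and 5.29%. Of 7 tested in the Dax1 experiment, 5 were higher and none lower with sh1, beside 22.3% and 21.2%. With sh2 1 was higher and 4 lower, beside 12.5% in each direction. The 10 primitive endoderm markers summed to 358 and 371 CPM in wild type. They were at 235 and 220 CPM in KO1 and 242 and 240 CPM in KO2. Of 9 tested, 8 were lower in KO1 and 4 in KO2, beside 13.8% and 5.29% of all features. Their sum was 208 and 206 CPM in the Dax1 control, 230 and 240 CPM with sh1, and 245 and 255 CPM with sh2. Of 10 tested, 3 were higher and 2 lower with sh1, beside 22.3% and 21.2% of all features. With sh2 6 were higher and none lower, beside 12.5% of all features in each direction. In the double knockdown experiment it was 231 CPM in control replicate 1 and 490 to 550 CPM in the other libraries. The 6 primitive streak and neural markers summed to 53.4 and 57.2 CPM in the Dax1 control. With sh1 they were at 143 and 138 CPM, and with sh2 at 55.5 and 52.4 CPM. In the double knockdown experiment they were at 201 to 219 CPM. In bulk RNA, more cells of a type and more RNA per cell cannot be told apart, and the part of any such cells in the RLTR1B-int values was not tested.

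**Figure D4:**
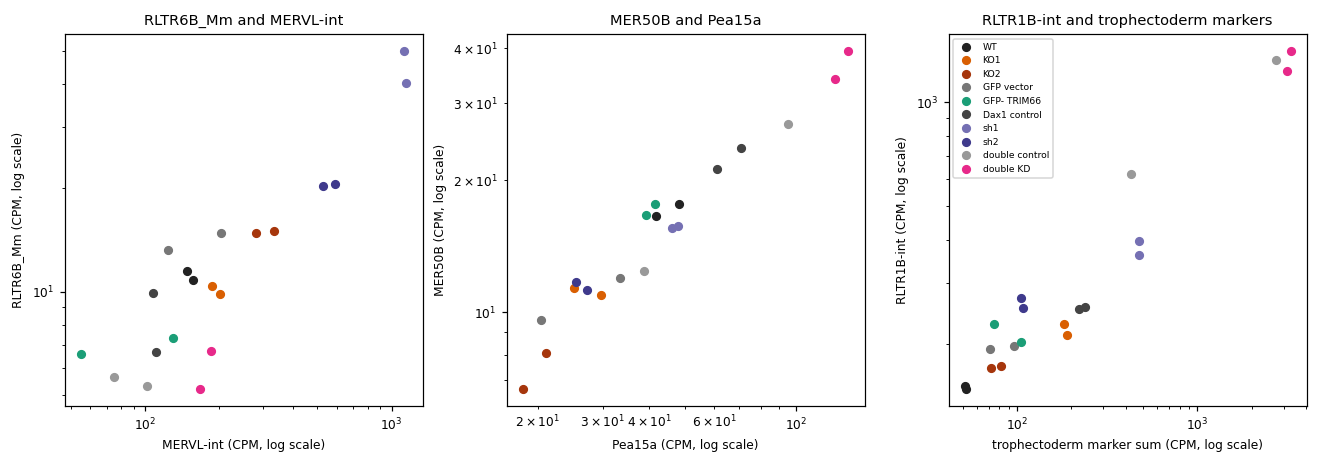
CPM in the 20 libraries (log scales, scaled within each experiment) of RLTR6B_Mm beside MERVL-int, MER50B beside the gene Pea15a, and RLTR1B-int beside the sum of 7 trophectoderm markers. The sh1 libraries lie at the top right of the first panel, the double knockdown libraries at the top right of the others, and the lowest MER50B and Pea15a levels are those of KO2.

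LTRIS2 and RLTR23 had calls on the same side as RLTR1B-int. LTRIS2, an LTR of the MuRRS and LTRIS group, was at 54.0 and 48.3 CPM in the Dax1 control, 70.9 and 76.2 CPM with sh1, and 57.3 and 57.2 CPM with sh2. It rose with sh1 (log2 fold change 0.52, SE 0.070, adjusted p = 7.37e-07), and sh2 was below sh1 (-0.36, adjusted p = 0.000166). RLTR23 was at 21.1 and 23.4 CPM in wild type, 36.8 and 37.0 CPM in KO1, and 23.1 and 27.7 CPM in KO2. KO1 was clear of both other groups (log2 fold change against wild type 0.73, SE 0.129, adjusted p = 0.00233), and KO2 was below KO1 (-0.54, adjusted p = 0.0156), a call lost without either KO1 library (adjusted p = 0.112 and 0.121). With sh1 RLTR23 rose from 21.5 and 22.0 CPM to 33.2 and 30.4 CPM (0.55, adjusted p = 4.44e-05), and with sh2 it was at 16.8 and 19.6 CPM (-0.25, adjusted p = 0.085), below sh1 (-0.81, adjusted p = 4.24e-07). For the double knockdown experiment RLTR23 was at 43.0 CPM in control replicate 1 and at 74.5 to 89.0 CPM in the other libraries, and LTRIS2 at 113 CPM and at 172 to 187 CPM.

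The RLTR1B LTR row did not follow its internal part. It was at 18.1 and 16.8 CPM in the Dax1 control, 17.7 and 18.6 CPM with sh1, and 23.7 and 25.2 CPM with sh2. It rose with sh2 (log2 fold change 0.48, adjusted p = 0.00108) and was higher with sh2 than with sh1 (0.43, adjusted p = 0.00189), the opposite side from RLTR1B-int. With scaling on elements only the difference between the hairpins was no longer called (adjusted p = 0.0838). It was at 13.1 and 14.7 CPM in the double knockdown control and 11.4 and 10.7 CPM in the double knockdown. MMERGLN-int, the internal part of the GLN retroviruses and one of the most counted rows, was called nowhere, with log2 fold changes from -0.29 in the double knockdown to 0.38 with GFP-TRIM66.

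The 14 MuRRS, MURVY and LTRIS rows had 11 tested members in the knockout and Dax1 experiments. LTRIS_Mm rose with both hairpins, from 4.41 and 2.83 CPM to 6.28 and 7.07 CPM with sh1 (log2 fold change 0.87, SE 0.219, adjusted p = 0.0020) and 6.54 and 8.78 CPM with sh2 (1.07, SE 0.218, adjusted p = 0.000525). The sh1 call was lost without control replicate 2 (log2 fold change 0.59, adjusted p = 0.0605). MuRRS4-int (0.52, adjusted p = 0.0357) and LTRIS_Mus (0.27, adjusted p = 0.0477) were higher with sh2 only among calls, and LTRIS_Mus was also higher with sh2 than with sh1 (0.28, adjusted p = 0.0269). The MuRRS4-int call was lost when any 1 library was left out (adjusted p = 0.0501 to 0.229). Both LTRIS_Mus calls were lost without sh2 replicate 1 (log2 fold changes of 0.15 and 0.17), without either library of the other group (adjusted p = 0.141 and 0.179 for the control, 0.0764 and 0.0930 for sh1) and with DESeq2 (0.225 and 0.139). With scaling on elements only none of these 3 was called. LTRIS3 was lower in KO1, with 37 counts against 74 in wild type (-0.94, adjusted p = 0.0466), and higher in KO2 than in KO1 (1.02, adjusted p = 0.042). The first call was lost when any 1 of the 4 libraries was left out (adjusted p = 0.0684 to 0.251), and the second without either KO1 library (0.153 and 0.229) or KO2 replicate 1 (0.0830). Both were lost with DESeq2 (0.152 and 0.140) and with scaling on elements only (0.0877 and 0.0902).

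MURVY is a retrovirus with many copies on the mouse Y chromosome, so its rows are set beside the Y-linked genes. The summed level of the 9 Y-linked genes in the Dax1 experiment was 5.22 and 4.35 CPM in the control, 147 and 156 CPM with sh1, and 52.9 and 63.3 CPM with sh2. In the knockout experiment, where their sum was above wild type in both lines, MURVY-LTR was at 9.82 and 15.0 CPM in wild type, 8.63 and 15.7 CPM in KO1, and 11.4 and 15.6 CPM in KO2. MURVY-LTR was at 18.1 and 10.7 CPM in the Dax1 control, 15.2 and 19.2 CPM with sh1, and 16.2 and 20.03 CPM with sh2. In the double knockdown experiment it was at 13.9 and 5.67 CPM in the control, where Ddx3y had no count, and at 6.24 and 6.60 CPM in the double knockdown. The groups overlapped in all 3 experiments, and neither MURVY-LTR nor MURVY-int was called in any of the 8 comparisons.

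**Figure D5:**
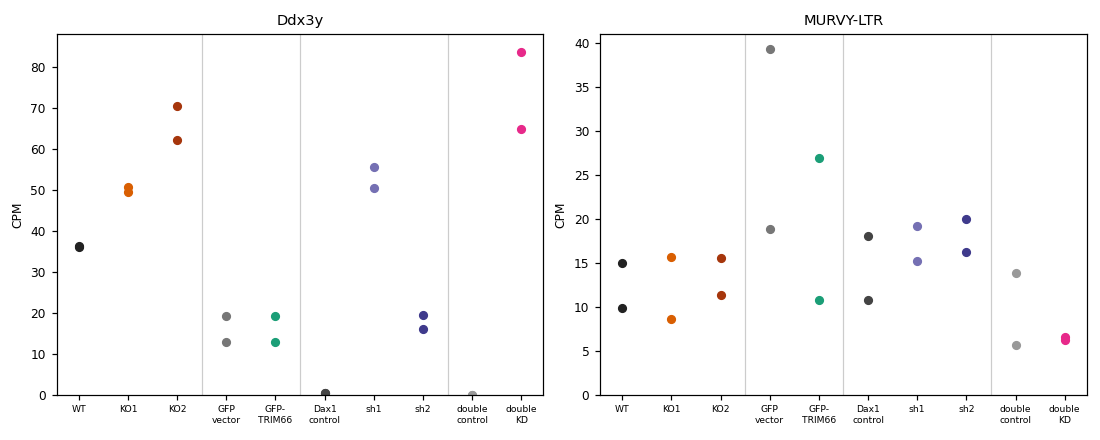
CPM (scaled within each experiment) of the Y-linked gene Ddx3y and of the ERV1 row MURVY-LTR in the 20 libraries, one point per library. Ddx3y is at 0 in the double knockdown control and at 0.468 and 0.507 CPM in the Dax1 control, while MURVY-LTR lies between 5.67 and 18.1 CPM in those libraries.

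Among the other rodent RLTR rows, RLTR14-int separated the lines in the way RLTR4_MM-int did. It was at 37.3 and 37.6 CPM in wild type, 24.1 and 24.8 CPM in KO1, and 40.4 and 45.3 CPM in KO2. KO1 was lowest with no overlap (log2 fold change -0.61, SE 0.115, adjusted p = 0.00315), KO2 was not called against wild type (0.20, adjusted p = 0.293), and KO2 was above KO1 (0.81, SE 0.114, adjusted p = 0.00133). Both calls held under every alternative tried. With sh2 RLTR14-int was at 18.8 and 21.7 CPM against 24.3 and 26.4 CPM (-0.33, adjusted p = 0.0336), a call lost without control replicate 2 (adjusted p = 0.207), without sh2 replicate 1 (0.278) and with DESeq2 (0.139).

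The LTR rows RLTR14 and RLTR41A2 rose with both hairpins, and RLTR41 with sh2. RLTR14 was at 10.6 and 13.0 CPM in the control, 15.5 and 20.3 CPM with sh1 (log2 fold change 0.61, adjusted p = 0.000639), and 17.3 and 18.4 CPM with sh2 (0.60, adjusted p = 0.00175). Without control replicate 1 its sh2 call was lost (0.46, adjusted p = 0.0539). RLTR41 was at 12.4 and 11.2 CPM in the control, 13.4 and 12.6 CPM with sh1 (0.14, adjusted p = 0.393), and 18.1 and 17.95 CPM with sh2 (0.61, adjusted p = 0.000432). RLTR41A2 was low, at 1.87 and 0.942 CPM in the control, 2.86 and 2.72 CPM with sh1 (0.97, adjusted p = 0.0170), and 3.53 and 4.24 CPM with sh2 (1.44, adjusted p = 0.000944); its sh1 call was lost without control replicate 2 (0.57, adjusted p = 0.222), without sh1 replicate 1 (adjusted p = 0.0663) and with DESeq2 (0.0781). RLTR48A and RLTR30E_MM were higher with sh2 than with sh1 (0.68 and 0.70, adjusted p = 0.00115 and 0.00123), and RLTR30E_MM was lower with sh1 than in the control (-0.41, adjusted p = 0.0473), a call lost without any 1 of the libraries (adjusted p = 0.118 to 0.134). The highest fold of any member rested on few reads: RLTR30C_MM had 4 counts in the 2 control libraries, 33 with sh1 (2.95, adjusted p = 0.00181) and 20 with sh2 (2.38, adjusted p = 0.0306). Its sh2 call was lost without control replicate 2 (log2 fold change 1.48, adjusted p = 0.260), without either sh2 library (0.0565 and 0.197) and with DESeq2 (0.0974).

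The MER and LTR names are mostly old repeats shared by many mammals. MER50B was lower in both lines and with both hairpins. It was at 16.6 and 17.6 CPM in wild type, 11.4 and 11.0 CPM in KO1, and 6.69 and 8.06 CPM in KO2. The order was wild type, KO1 and KO2 with no overlap, at log2 fold changes of -0.62 in KO1 (SE 0.157, adjusted p = 0.0147) and -1.21 in KO2 (SE 0.162, adjusted p = 0.00131). KO2 was below KO1 (-0.59, adjusted p = 0.0305). The KO1 call was lost when any 1 of the 4 libraries was left out (adjusted p = 0.0613 to 0.102) and with scaling on elements only (0.0587), and the call between the lines without either KO1 library (0.170 and 0.145), without KO2 replicate 1 (0.0691) and with DESeq2 (0.0728), while the KO2 call held under every alternative. MER50B was at 23.7 and 21.2 CPM in the Dax1 control, 15.6 and 15.8 CPM with sh1 (-0.52, SE 0.110, adjusted p = 0.000346), and 11.7 and 11.3 CPM with sh2 (-0.97, SE 0.117, adjusted p = 4.29e-07). It was lower with sh2 than with sh1 (-0.45, adjusted p = 0.00527). It was at 12.003 and 9.60 CPM with the GFP vector and 17.7 and 16.7 CPM with GFP-TRIM66 (0.67, adjusted p = 0.328), and at 12.4 and 26.9 CPM in the double knockdown control against 34.0 and 39.4 CPM in the double knockdown (0.90, adjusted p = 0.439).

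Over all 20 libraries the feature most like MER50B was Pea15a (chromosome 1, 172196728 to 172206804, GRCm38.p6), a gene for a small death-effector-domain protein that binds ERK, with a Pearson correlation of log2(CPM + 1) of 0.98, and of 0.97 within experiments. Pea15a was chosen after values were seen. Its log2 fold changes were -0.71 in KO1 (adjusted p = 0.00354), -1.19 in KO2 (adjusted p = 0.000636), -0.49 with sh1 (adjusted p = 7e-06), and -1.33 with sh2 (adjusted p = 2.28e-12), all lower. It was at 0.58 with GFP-TRIM66 (adjusted p = 0.375) and 0.99 in the double knockdown (adjusted p = 0.441). The tables do not give positions of copies, so whether the MER50B reads lie in or near Pea15a was not tested.

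MER89 moved the other way. It was at 10.2 and 7.45 CPM in wild type, 9.38 and 11.0 CPM in KO1, and 24.1 and 13.8 CPM in KO2. KO2 was above the others, with its libraries far apart (log2 fold change against wild type 1.09, SE 0.264, adjusted p = 0.026, and against KO1 0.88, adjusted p = 0.0366). The KO2 call was lost without either wild-type library (adjusted p = 0.0695 and 0.196), and the difference from KO1 without either KO1 library (0.204 and 0.119) and without KO2 replicate 1 (log2 fold change 0.44, adjusted p = 0.126). With the hairpins it rose from 7.42 and 6.74 CPM to 10.9 and 12.8 CPM with sh1 (0.74, adjusted p = 0.000218) and 11.9 and 12.6 CPM with sh2 (0.79, adjusted p = 0.000278). MER110A rose with sh1 alone among calls (0.83, adjusted p = 0.00321) and was lower with sh2 than with sh1 (-0.83, adjusted p = 0.00452), the latter lost without sh1 replicate 2 (adjusted p = 0.0571) or sh2 replicate 2 (0.0658). MER34-int had 8 counts with sh1 against 30 in the control (-1.89, adjusted p = 0.0244), a call lost without either control library (adjusted p = 0.0736 and 0.0938), without sh1 replicate 2 (log2 fold change -1.09, adjusted p = 0.267) and with DESeq2 (0.0947). MER57D was lower in KO1 (-0.61, adjusted p = 0.0485), a call lost when any 1 of the 4 libraries was left out (adjusted p = 0.0609 to 0.261), with DESeq2 (0.0528) and with scaling on elements only (0.0721).

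Of the 20 tested MER rows 2 were higher and 2 lower with sh1, and 1 was higher and 1 lower with sh2, beside 43.4% and 25.1% of all features called. Of the 11 tested LTR rows LTR28B was higher (0.87, adjusted p = 0.0117) and LTR9 lower (-0.69, adjusted p = 0.00725) with sh1, and none was called with sh2. Both calls were lost when certain single libraries were left out (adjusted p up to 0.0978 for LTR28B and 0.0564 for LTR9) and with DESeq2 (0.0825 and 0.0501). MLTR12 was lower in KO1, at 5.07 and 5.62 CPM against 8.53 and 8.52 CPM (-0.67, adjusted p = 0.0194), a call lost when any 1 library was left out (adjusted p = 0.0764 to 0.141), with DESeq2 (0.0596) and with scaling on elements only (0.0691). MLTR14, one of the most counted rows, rose with sh2 from 46.8 and 44.0 CPM to 60.6 and 52.5 CPM (0.32, adjusted p = 0.00322), a call lost without control replicate 2 (0.0600), without sh2 replicate 1 (0.123) and with scaling on elements only (0.249).

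With GFP-TRIM66 no ERV1 member was called by edgeR's quasi-likelihood test, and 0.0199% of all features were (3 of 15078, 0.0133% higher and 0.00663% lower). The members nevertheless lay to one side, with 84 of 94 tested at a negative log2 fold change and a median of -0.92, beside -1.07 for all tested elements and 0.02 for genes. At an unadjusted p under 0.05, 36 members were lower and none higher, against 9.05% and 7.66% of all features. DESeq2 called 7 members lower and none higher, MLTR12, MLTR14, RLTR1B, RLTR24, RLTR30D2_MM, RMER2 and RMER5, against 1.97% of all features lower and 1.86% higher. RMER5 was at 87.9 and 72.1 CPM with the vector and 39.0 and 29.7 CPM with GFP-TRIM66 (-1.22, SE 0.257, adjusted p = 0.163), and MLTR14 at 89.2 and 78.7 CPM and at 44.2 and 37.7 CPM (-1.04, SE 0.231, adjusted p = 0.163). Both pairs were well apart.

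The summed share of counts of all transposable elements was also lower, at 9.61% and 7.82% with the vector and 4.87% and 4.17% with GFP-TRIM66. No element was called in this comparison, and not every row fell. The mean of RLTR1B-int was 195 CPM with the vector and 215 CPM with GFP-TRIM66. Scaled on elements only, the ERV1 median was 0.14 and the median of all features 1.03. Of 92 tested members 8 were then called higher and none lower, beside 6849 calls among all features. As a share of element counts ERV1 was 1.57% and 2.00% with the vector and 2.40% and 2.47% with GFP-TRIM66. The vector libraries differed from each other, and so did the GFP-TRIM66 libraries, by a chi-square of 50.1 and 40.5 per degree of freedom over genes and elements. This value was 2.27 to 2.68 in the Dax1 experiment, 7.16 in wild type, 5.48 in KO1 and 20.1 in KO2.

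In the double knockdown no member was called among 79 tested, and 0.104% of all features were (15 of 14387, 0.0904% higher and 0.0139% lower). At an unadjusted p under 0.05, 3 members were higher and 2 lower, against 6.10% and 4.80% of all features, and DESeq2 called none, against 0.841% of all features higher and 0.660% lower. The 3 were LTRIS3, LTRIS4 and MER50B, and the 2 were RLTR4_MM-int and MER31B. The control libraries differed from each other (chi-square 41.8 per degree of freedom), and Trim66 had 4 counts in control replicate 1 and 87 in replicate 2. Without control replicate 2 the median log2 fold change of tested members was -0.10, beside 0.0075 for all features. Without control replicate 1 it was -0.13, beside 0.0048. The pair of RLTR6B_Mm values overlapped its control, whereas sh1 and sh2 alone were above theirs, but the experiments were not compared by a test and their controls differ in level and in cell markers.

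Genes of the silencing pathway were listed beside the elements: 35 were written, 34 were in the tables and tested. In KO1 5 were higher and 5 lower, or 29.4% called, against 31.2% of all features. In KO2 2 were higher and none lower, or 5.88%, against 11.7%. With sh1 8 were higher and 13 lower, or 61.8%, against 43.4%, and with sh2 4 were higher and 4 lower, or 23.5%, against 25.1%. Dnmt3l, the cofactor of de novo DNA methylation (chromosome 10, 78042287 to 78063622), was at 224 and 242 CPM in wild type, 562 and 579 CPM in KO1, and 471 and 538 CPM in KO2. It rose in all of these, by 1.29 in KO1, 1.11 in KO2, 0.85 with sh1 and 0.87 with sh2 on the log2 scale. Dnmt3b, a de novo DNA methyltransferase, rose in KO1 (1.52), KO2 (1.01) and with sh1 (0.54). Dnmt1 and its partner Uhrf1, which copy methylation after replication, fell with sh1 by 0.36 and 0.39, and Hells, a chromatin remodeller needed for methylation of repeats, by 0.46.

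Among the H3K9me3 machinery, Trim28 rose by 0.28 with sh2 (adjusted p = 1.17e-06), and Setdb1 fell by 0.16 with sh1 (adjusted p = 0.0306). Zfp809, the zinc finger protein that binds the MLV primer binding site, was called in none of the 8 comparisons, with log2 fold changes between -0.03 and 0.29. Sumo2, whose product is needed for TRIM28-dependent silencing, fell by 1.03 with sh1 (adjusted p = 3.06e-12). With GFP-TRIM66 no gene of the list was called, with 5 of 34 higher at an unadjusted p under 0.05, beside 7.66% of all features. In the double knockdown none was called, with 2 of 34 lower at that threshold, beside 4.80% of all features.

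Of the 4 gammaretrovirus receptors, Xpr1 (chromosome 1, 155275657 to 155417444), the receptor of xenotropic and polytropic MLV, was at 38.8 and 38.6 CPM in wild type, 17.6 and 21.2 CPM in KO1, and 25.8 and 26.2 CPM in KO2. It fell in KO1 (-0.99, adjusted p = 0.00037), KO2 (-0.57, adjusted p = 0.0153) and with sh1 (-0.53, adjusted p = 0.0017). Slc7a1, the ecotropic MLV receptor, fell in KO1 (-0.52, adjusted p = 0.0067). Slc20a1, whose human counterpart is the receptor of gibbon ape leukemia virus, rose with sh1 (0.27) and sh2 (0.41).

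Of the 9 restriction genes, Fv1, itself derived from a retroviral gag gene, was low, at 1.15 and 0.939 CPM in wild type, 0.454 and 0.137 CPM in KO1, and 0.152 and 0.175 CPM in KO2. It was lower in KO1 (-1.82, adjusted p = 0.0427), in KO2 (-2.60, adjusted p = 0.0306) and with sh2 (-1.73, adjusted p = 0.0307). Apobec3, a cytidine deaminase that restricts MLV, fell with sh1 (-0.71, adjusted p = 4.95e-11), and Bst2, which tethers budding particles, rose in KO1 (1.52) and with sh1 (0.88). Of the 8 tested restriction genes, 3 were higher and 2 lower in KO1, or 62.5% called, against 31.2% of all features. In KO2 none was higher and 1 lower, or 12.5%, against 11.7%. With sh1, 1 was higher and 4 lower, or 62.5%, against 43.4%. With sh2, 1 was higher and 2 lower, or 37.5%, against 25.1%. The captured envelope gene Syna had at most 14 counts in a library and was called in none of the knockout comparisons, the only ones in which it passed the filter, and Synb had no counts.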

How the data were processed

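Raw counts, with rows for genes and for element subfamilies, were deposited by the authors as 1 table per experiment, per the file headers, and every value was whole. The submitters' processing notes name HISAT2 2.1.0 and Cufflinks 2.2.1 among other tools, and the mm10 genome. How reads were counted (tool, strand, reads with several matches) is not stated in those notes or headers, so reads may be divided among similar subfamilies. Chromatin immunoprecipitation data (9 samples) were not analysed here, and no element sequence was used.

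edgeR 4.0.16 (R 4.3.3) was run separately on the 4 tables. One model took genes and elements, with filterByExpr, TMM scaling and the quasi-likelihood F test, and p was adjusted by Benjamini-Hochberg over all features tested. Calls needed an adjusted p below 0.05 and had no limit on fold. The script was tested on simulated data. Positions came from a GRCm38.p6 gene table. Members described in full were RLTR6B_Mm, the 10 with the highest mean CPM, and the 25 called members with the smallest adjusted p among those of at least 2 CPM, 28 in all. Likeness was computed for features of at least 3 CPM, with a pseudocount of 1. The members and gene lists were chosen with earlier results of these data known. Alternatives were RLE size factors, no filter, DESeq2 1.42.0, scaling on genes or on elements only, a replicate block, 1 fit of all 20 libraries, and leaving out each library.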

Additional observations from a re-analysis of the deposited data

Results flagged for a closer look

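Several members differed between lines or hairpins that carry the same label, by a direct edgeR quasi-likelihood test of one against the other (adjusted p under 0.05). Of the members described in full, 9 differed between KO2 and KO1. The effect in KO2 minus that in KO1, on the log2 scale, was 0.96 for RLTR4_MM-int, 0.93 for RLTR4_Mm, 0.88 for MER89, 0.81 for RLTR14-int, 0.56 for RLTR6B_Mm and 0.46 for RLTR6-int. It was -0.59 for MER50B, -0.54 for RLTR23 and -0.37 for RLTR1B-int. RLTR4_MM-int was the member that moved to opposite sides of wild type, lower in KO1 and higher in KO2, with both calls past the threshold.

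Between the Dax1 hairpins 15 differed. The effect of sh2 minus that of sh1 was -1.14 for RLTR6B_Mm, -0.83 for MER110A, -0.81 for RLTR23, -0.53 for RLTR1B-int, -0.45 for MER50B and -0.36 for LTRIS2. It was 0.70 for RLTR30E_MM, 0.68 for RLTR48A, 0.53 for LTR9, 0.47 for RLTR41, 0.47 for RLTR4_MM-int, 0.43 for RLTR1B, 0.42 for RLTR4_Mm, 0.29 for MLTR14 and 0.26 for RMER5. The LTR9 difference (adjusted p = 0.0487) was lost in 7 of 11 alternatives, among them leaving out either sh1 library (adjusted p = 0.0597 and 0.198) or sh2 replicate 2 (log2 fold change 0.20, adjusted p = 0.580). That of RMER5 was lost in 5 of 11, among them without sh1 replicate 1 (adjusted p = 0.0611) or sh2 replicate 2 (log2 fold change 0.13, adjusted p = 0.326), and that of MLTR14 without sh2 replicate 1 (log2 fold change 0.18, adjusted p = 0.133). With scaling on elements only LTR9, RMER5, MLTR14, RLTR41, RLTR1B and RLTR4_Mm were not called between the hairpins.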

How the results depend on the processing

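Of the 76 calls of members, 11 held under every alternative, among them RLTR6B_Mm with both hairpins, RLTR14-int in KO1, MER50B in KO2 and RLTR4_MM-int between the lines. Counts of called members that moved by over 1.5 times were as follows. Without a filter on low counts they were 14 in KO1, 11 in KO2 and 17 between the lines, against 9, 3 and 10. Calls among all features were then 5485, 2921 and 4426, against 4712, 1771 and 3477 in the main fit. With DESeq2 the member counts were 5 in KO1, 5 in KO2, 7 with GFP-TRIM66 and 12 with sh2, beside 3808, 1523, 577 and 2212 among all features. With scaling on elements only they were 6 in KO2 and 8 with GFP-TRIM66, beside 1856 and 6849. In 1 fit of all 20 libraries they were 2 in KO1, 3 between the lines and 42 with GFP-TRIM66 (1 higher and 41 lower), beside 2667, 1459 and 3899. They were 3 with sh1, 1 with sh2, 2 between the hairpins and 1 in the double knockdown, beside 1499, 221, 755 and 304. In the main fits calls among all features were 3 with GFP-TRIM66, 6454 with sh1, 3724 with sh2, 5409 between the hairpins and 15 in the double knockdown. The cause of these moves was not tested. The fit of all 20 libraries differs in filter and scaling as well as in its shared spread. The log2 fold change of RLTR6B_Mm with GFP-TRIM66 turned to 0.025 with scaling on elements only.

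The replicate numbers were not taken to pair the libraries: the labels tie no number to a shared batch or day, each group has 2 libraries, and deviations of same-numbered libraries correlated at 0.15, 0.38 and 0.09 in the knockout experiment, 0.04, -0.03 and 0.12 in the Dax1 experiment, 0.02 in the double knockdown experiment and -0.62 in the GFP experiment. With the number as a replicate block the calls were 12 in KO1, 7 in KO2, 13 between the lines, 0 with GFP-TRIM66, 17 with sh1, 21 with sh2, 19 between the hairpins and 0 in the double knockdown, and the calls among all features in KO2 went from 1771 to 2496. With the numbers of the GFP experiment crossed, a block chosen after seeing the data, there were 36 calls (3 higher and 33 lower). Calls among all features were then 4115, against 3 in the main fit.

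Leaving out 1 library at a time gave 3 calls in KO1 each time, 1 to 19 in KO2, 2 to 25 between the lines, 0 to 1 with GFP-TRIM66, 12 to 16 with sh1, 11 to 20 with sh2, 16 to 19 between the hairpins and 0 to 11 in the double knockdown. The highest counts in KO2 and between the lines came without KO2 replicate 2, and the 11 in the double knockdown without control replicate 2. RLTR6B_Mm in the double knockdown ranged from -0.072 without double knockdown replicate 1 to 0.29 without replicate 2. As a share of element counts ERV1 was 1.85% in wild type, 2.02% in KO1, 1.95% in KO2, 1.78% with the vector, 2.44% with GFP-TRIM66, 2.32%, 2.68% and 2.35% in the Dax1 control, sh1 and sh2, and 3.75% and 4.99% in the double knockdown control and double knockdown. With 2 libraries per group and 50 members under 100 counts in all 20 libraries, small changes of low members were not detectable at this depth.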
